A study of Mus musculus with 3 samples.

Results

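The 8 genes described here were chosen by name: Alas1, Alas2, Alad, Urod and Fech of haem synthesis, the carbonic anhydrase gene Car2, and the transcription factor genes Klf1 and Gata1. All 8 had a row among the 15122 genes of the table, matched by Ensembl identifier, and each was followed through the authors' 5 cell clusters in every library. The tissue was the forelimb bud of wild-type mouse embryos, taken apart with trypsin and read cell by cell in droplets, where each captured RNA molecule is counted once by its unique molecular identifier (UMI). There were 3 libraries with 1 reaction each: the stages E9.5 and E10.5 of strain c57bl6.J, named B6_E9.5 and B6_E10.5, and E9.5 of strain 129S6.sv, named 129_E9.5; the letter and number give the embryonic day. Values without a library name are in that order. All embryos were wild type, and neither the number of embryos pooled into a reaction nor their sex is stated in the labels. With 1 library per group there is no replicate, no test was made and no p-value is given; each interval below is a 95% interval that covers counting error only.

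Haem is an iron-holding ring that haemoglobin needs to bind oxygen, and every cell makes some of it for its respiratory enzymes. The pathway starts in the mitochondrion with 5-aminolevulinate synthase, made from Alas1 in most cell types and from the X-linked Alas2 in red cell precursors. It continues in the cytosol, where Alad and Urod encode the enzymes that join the first pyrroles and trim the side chains of the ring, and ends in the mitochondrion, where ferrochelatase (Fech) inserts the iron. Gata1 binds GATA motifs and Klf1 binds CACCC motifs, and both factors switch on red cell genes, haem synthesis and globin genes among them. Car2 encodes a carbonic anhydrase, an enzyme that red cells use to carry carbon dioxide. At the stages sampled the circulating red cells are primitive erythroid cells from the yolk sac, which still have a nucleus and still make RNA.

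The clusters were named from marker genes as mesenchyme-like (Lhx9, Lhx2, Prrx1 and Tbx5 among the 10 genes of highest fold), ectoderm-like (Fgf8, Wnt6, Epcam), muscle-progenitor-like (Lbx1, Pax3, Myf5, with Nefm and Sst also among its leading genes), endothelium-like (Cldn5, Emcn, Cdh5, led by the megakaryocyte gene Pf4 and with the progenitor gene Cd34) and erythroid-like (Hba-x, Hba-a1, Hbb-y); they are called mesenchyme, ectoderm, muscle progenitor, endothelial and erythroid below. Alas2 was itself a marker of the erythroid class, and all clusters were made from these same cells, so a class set against another is a description and no test. The erythroid class was limited to cells of at least 2000 UMIs, which kept 157 of 951 cells, 391 of 401 and 621 of 629 in the 3 libraries. Haemoglobin transcripts made up 37.7%, 51.4% and 52.1% of erythroid UMIs. They were also found at 0.133%, 0.0302% and 0.0470% of mesenchyme UMIs, and 17.4% of mesenchyme cells of B6_E9.5 held over 1% haemoglobin, against 0.0587% and 0.0975% in the other libraries. B6_E9.5 thus stood apart: 30.8% of its cells had fewer than 2000 UMIs and 29.8% at least 16000, against at most 10.1% and 2.66% in the other libraries. Among all libraries 1728 cells carried a barcode that also occurred in another library, and no doublet caller was run.

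In the mm10 build with GENCODE M21 genes, the synthase genes lie at chr9:106233455-106248654 on the minus strand (Alas1, ENSMUSG00000032786.16) and at chrX:150547375-150570638 on the plus strand (Alas2, ENSMUSG00000025270.13). Alad (ENSMUSG00000028393.10) and Urod (ENSMUSG00000028684.14) are both on the minus strand of chromosome 4, at chr4:62509169-62519918 and chr4:116989965-116994413. Fech (ENSMUSG00000024588.9) is at chr18:64452914-64490251 on the minus strand and Car2 (ENSMUSG00000027562.12) at chr3:14886273-14900770 on the plus strand. Klf1 (ENSMUSG00000054191.8) is at chr8:84901928-84905291 on the plus strand and Gata1 (ENSMUSG00000031162.14) at chrX:7959260-7978071 on the minus strand. Counts are of whole genes, so no transcript form was told apart.

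Alas1 and Alas2 had opposite patterns over the classes. Alas2 stood at 1154, 1134 and 1343 CPM in the erythroid class, where CPM is the UMIs of a gene per 1000000 UMIs of the class in that library. In the mesenchyme it stood at 3.14, 0.717 and 1.49 CPM. Of its 21020 UMIs, 20435 (97.2%) were in the erythroid class, and 93.0%, 97.2% and 99.4% of erythroid cells had at least 1. The matching shares in mesenchyme, where red cell genes should be silent, were 3.13%, 0.424% and 1.03%, at median depths of 8067, 5422 and 7463 UMIs against 17997, 14845 and 12055 in erythroid cells. With every cell thinned to 2000 UMIs the erythroid shares were 84.7%, 86.2% and 93.9%.

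Alas1 ran the other way. In the erythroid class it was at 4.83, 2.19 and 1.69 CPM, resting on 14, 13 and 13 UMIs. The mesenchyme values were 10.2, 11.3 and 15.9 CPM, those of ectoderm 16.9, 11.0 and 15.7, those of muscle progenitors 8.45, 12.3 and 15.7, and those of endothelial cells 13.1, 20.3 and 21.1. The erythroid range lay below that of every other class, while the ranges of the other 4 overlapped with their neighbours in the order endothelial, ectoderm, muscle progenitor, mesenchyme. Relative to mesenchyme, erythroid Alas1 was 0.474-fold (0.258 to 0.80) in the first, 0.193-fold (0.102 to 0.332) in the next and 0.106-fold (0.0564 to 0.182) in the last. Counted over UMIs that are not haemoglobin, so that the haemoglobin share does not shrink the value, these ratios were 0.760, 0.397 and 0.222. No interval was computed on this scale, and the highest of them, that of B6_E9.5, rests on 14 erythroid UMIs. The number of Alas2 UMIs per Alas1 UMI was 239, 517 and 797 in erythroid cells and 0.308, 0.0632 and 0.0943 in mesenchyme.

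The upstream sequences of both synthase genes are shown because Gata1 and Klf1 are described beside them. Each is the 250 bases before a RefSeq transcription start (GRCm38.p6), read 5′ to 3′ on the gene's strand, with the searched letters in capitals. These are the GATA cores, AGATAA or with another first base TGATAA, and the KLF core, CACCC; a match on the opposite strand is printed as its reverse complement. Alas2 lies at chrX:150547167-150547416 on the plus strand, and Alas1 has 2 annotated starts, of which the upstream one is shown (chr9:106247955-106248204, minus strand).
Alas2: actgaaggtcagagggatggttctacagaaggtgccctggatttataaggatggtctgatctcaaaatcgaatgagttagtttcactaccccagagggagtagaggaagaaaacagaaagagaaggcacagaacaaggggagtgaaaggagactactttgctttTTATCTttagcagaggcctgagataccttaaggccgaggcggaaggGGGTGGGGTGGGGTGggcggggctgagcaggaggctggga
Alas1: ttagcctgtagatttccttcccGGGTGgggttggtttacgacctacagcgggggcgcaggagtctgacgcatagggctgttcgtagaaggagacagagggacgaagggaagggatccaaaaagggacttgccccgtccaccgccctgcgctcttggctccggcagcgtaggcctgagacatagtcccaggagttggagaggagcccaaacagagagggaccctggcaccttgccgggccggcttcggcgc
The Alas2 window held 1 AGATAA on the minus strand, whose first base is 86 bases before the start, and 3 copies of CACCC on the minus strand within the last 40 bases. The Alas1 window held 1 CACCC and no GATA core. Of 32851 mouse promoter windows of this length, 9.99% held AGATAA, 7.94% TGATAA, 16.6% either and 52.0% CACCC, so a CACCC match is common, and a match is a description of letters, not a bound site.

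Alad, Urod and Fech, the enzymes that all cells share, were found in every class and were all highest in the erythroid class. Erythroid Alad was 602, 524 and 1510 CPM, the last in 129_E9.5, against 47.2, 48.8 and 132 in mesenchyme. Urod was 358, 387 and 492 CPM in erythroid cells and 32.0, 43.3 and 58.5 in mesenchyme. Fech was 339, 433 and 507 CPM in erythroid cells and 14.6, 19.8 and 18.5 in mesenchyme. The fold of erythroid over mesenchyme was 12.8, 10.7 and 11.4 for Alad, 11.2, 8.93 and 8.41 for Urod and 23.2, 21.8 and 27.4 for Fech. Counted over UMIs that are not haemoglobin, these folds were 20.4, 22.1 and 23.8 for Alad, 17.9, 18.4 and 17.6 for Urod and 37.2, 44.9 and 57.2 for Fech. For all 3 genes the erythroid range lay above that of every other class and the ranges of the other 4 classes overlapped with their neighbours. In the non-erythroid classes Alad spanned 35.8 to 207 CPM, Urod 20.6 to 65.3 and Fech 12.7 to 25.6.

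Uros, Cpox and Ppox, which also encode enzymes of the pathway, were each at least 2-fold higher in the erythroid class than in every other class of all 3 libraries. Cpox, which oxidises coproporphyrinogen, was at 745, 623 and 763 CPM in erythroid cells against 23.5, 18.4 and 21.3 in mesenchyme. By the same measure 7 of the 8 genes described here were higher, Alas1 being the exception, against 146 of all 15122 genes. Uros, which closes the ring, was at 95.2, 49.2 and 54.8 CPM in erythroid cells, highest in B6_E9.5.

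**Figure D1:**
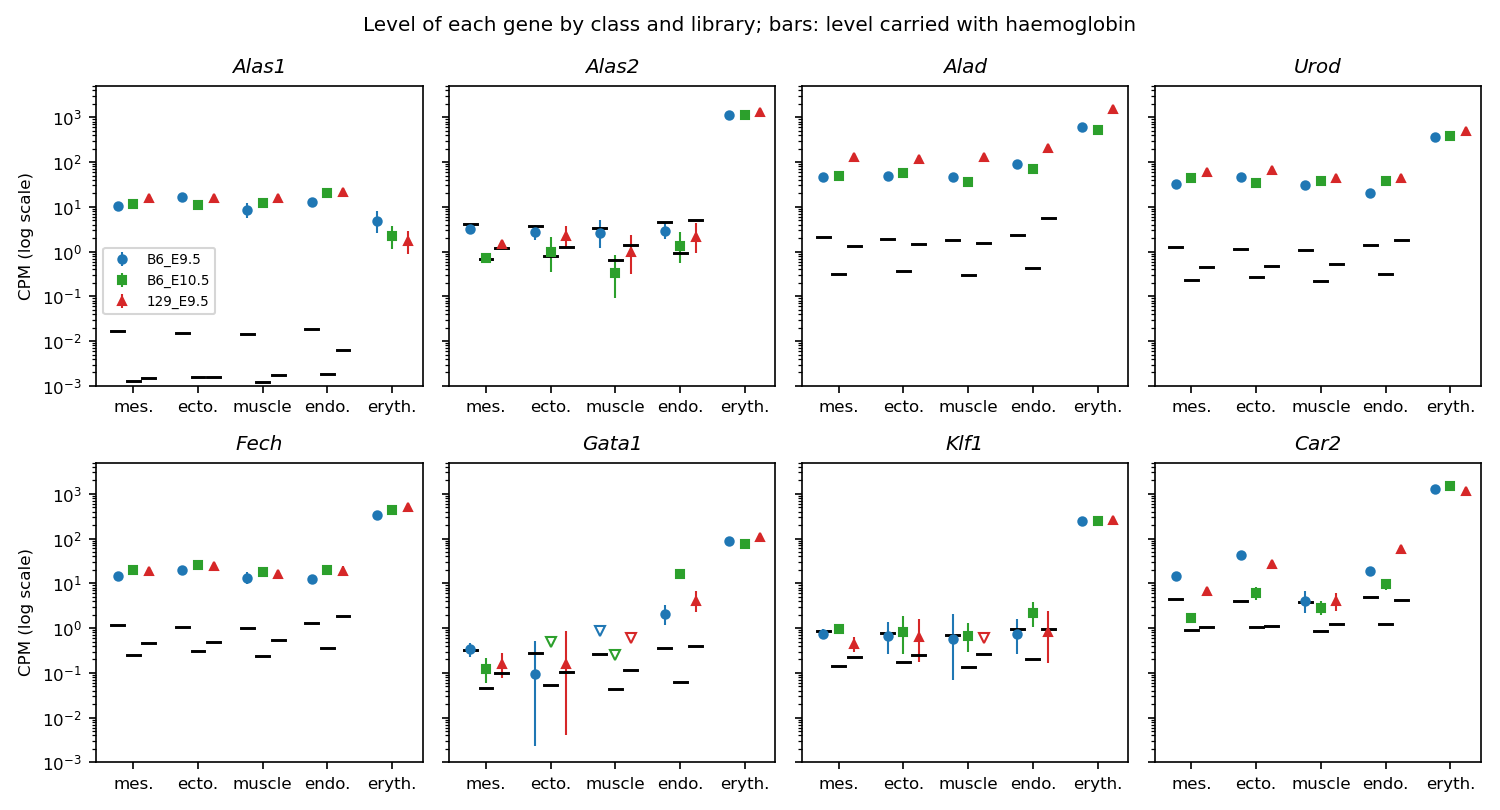
Level of each gene (CPM, log axis) by class and library; points are the summed UMIs of a class with 95% Poisson intervals, open triangles the limit for a count of 0 (3 UMIs), and black bars the level that the haemoglobin UMIs of the class would bring along at the erythroid ratio. Alas2 lies near its bars outside the erythroid class (3.14 CPM against 4.07 in B6_E9.5 mesenchyme), Alad, Urod and Fech lie far above theirs, and Alas1 is lowest in the erythroid class.

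Haemoglobin UMIs in classes that do not make haemoglobin can come with other red cell transcripts. The level so carried was computed from the haemoglobin UMIs of a class and the number of UMIs of each gene per haemoglobin UMI in the erythroid class of the same library. For Alas2 in mesenchyme it came to 4.07, 0.667 and 1.21 CPM, so that the measured level was 0.771, 1.07 and 1.23 times the carried one. Alad in mesenchyme was 22.2, 158 and 97.1 times its carried level, Urod 25.4, 190 and 132 times, and Fech 12.2, 77.8 and 40.4 times. Over the 4 classes outside the erythroid one, Alas2 was at 0.433 to 1.71 times its carried level, whereas Alad, Urod and Fech were at 9.58 times or more.

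Klf1 and Gata1 were both erythroid by level. Klf1 was at 242, 242 and 254 CPM in erythroid cells, and at most 2.13 CPM in any other class. It was found in 84.7%, 89.5% and 92.1% of erythroid cells. In mesenchyme Klf1 was 0.752, 0.937 and 0.441 CPM (74, 85 and 31 UMIs), which is 0.882, 6.59 and 1.92 times the carried level. In B6_E10.5 the other classes also stood above it, at 4.69 times in ectoderm (5 UMIs), 4.91 in muscle progenitors (8 UMIs) and 10.7 in endothelial cells (11 UMIs).

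Gata1 was at 90.3, 76.7 and 108 CPM in erythroid cells, with at least 1 UMI in 64.3%, 63.9% and 68.9% of them. Muscle progenitors held 0 Gata1 UMIs in all 3 libraries, which allows up to 0.874, 0.251 and 0.597 CPM. Mesenchyme was at 0.335, 0.121 and 0.157 CPM, 1.05, 2.69 and 1.61 times the carried level. The endothelial class was the exception, with 2.06, 16.3 and 4.06 CPM from 17, 84 and 15 UMIs, a range above those of mesenchyme and ectoderm. Both factors are shown with their upstream bases, since each is known as a target of GATA factors. Klf1 lies on the plus strand (chr8:84901732-84901981), and the Gata1 start used by RefSeq lies on the minus strand (chrX:7967911-7968160).
Klf1: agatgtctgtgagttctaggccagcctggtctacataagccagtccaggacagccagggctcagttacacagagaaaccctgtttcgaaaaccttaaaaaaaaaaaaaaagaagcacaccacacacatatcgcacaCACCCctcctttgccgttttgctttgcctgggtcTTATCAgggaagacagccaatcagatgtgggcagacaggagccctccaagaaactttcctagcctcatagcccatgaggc
Gata1: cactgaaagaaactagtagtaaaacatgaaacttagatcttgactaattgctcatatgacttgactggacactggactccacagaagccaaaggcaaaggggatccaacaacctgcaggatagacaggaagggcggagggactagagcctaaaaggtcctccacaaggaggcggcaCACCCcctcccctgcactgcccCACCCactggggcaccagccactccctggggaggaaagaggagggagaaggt
The Klf1 window held 1 TGATAA on the minus strand from 80 bases before the start and 1 CACCC from 114 bases before it. The Gata1 window held 2 copies of CACCC, from 74 and 52 bases before the start, and neither GATA core. The windows of Alad and Urod held no GATA core, and Urod no CACCC.

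The Gata1 counts of the endothelial class sat in cells with megakaryocyte markers. Megakaryocytes make platelets and are known to need Gata1. The cells were sorted into sets after the values of the class had been seen. Cells with at least 2 UMIs of the 10 megakaryocyte markers (Pf4, Itga2b and others) numbered 14, 87 and 8. They held 14 of 17, 82 of 84 and 13 of 15 Gata1 UMIs, at 57.5, 96.0 and 140 CPM, and 3, 24 and 5 of the cells carried any. With a minimum of 4 marker UMIs the levels were 76.6, 176 and 187 CPM. Cells with neither megakaryocyte nor macrophage markers, 833, 520 and 447 in number, were at 0.377, 0.267 and 0.560 CPM. The 100 cells of B6_E10.5 with macrophage markers held 1 Gata1 UMI. Klf1 in the megakaryocyte-marked cells was 4.11, 8.20 and 10.7 CPM from only 1, 7 and 1 UMIs, and Alas2 had 1 UMI in each library, so these genes were near the limit of detection there. Haemoglobin made up 0.115%, 0.118% and 0.0515% of their UMIs, against 0.148%, 0.0276% and 0.199% in the cells with neither marker.

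**Figure D2:**
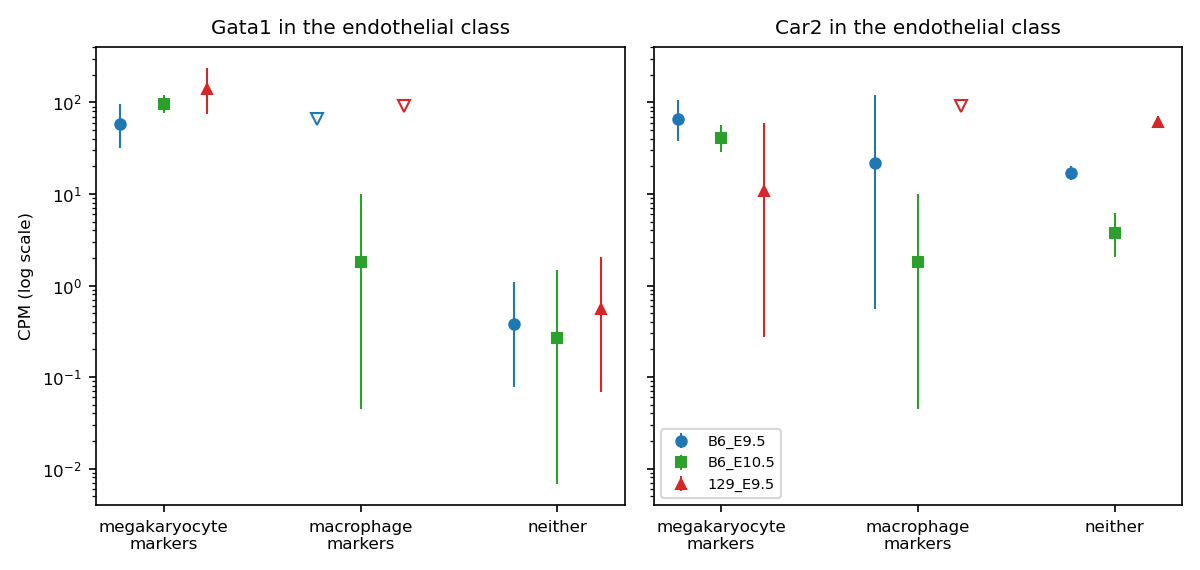
Gata1 and Car2 (CPM, log axis) in cells of the endothelial class with at least 2 UMIs of megakaryocyte markers, those of the remainder with at least 2 UMIs of macrophage markers, and the rest; points are summed UMIs with 95% Poisson intervals, open triangles the limit of 3 UMIs at a count of 0. Gata1 is at 57.5 to 140 CPM in the first set and under 1 CPM in the last, whereas Car2 of 129_E9.5 is at 61.6 CPM in the last.

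Car2 had a larger share of its UMIs in the erythroid class than Alad, Urod and Fech, and a smaller share than Alas2, Klf1 and Gata1. It stood at 1285, 1514 and 1165 CPM in the erythroid class, which held 87.1% of its UMIs in all. In ectoderm it was at 42.5, 6.0 and 26.6 CPM, and in mesenchyme at 14.5, 1.70 and 6.90. Endothelial cells held 18.4, 9.69 and 59.8 CPM, and muscle progenitors 4.08, 2.84 and 3.98. The erythroid range lay above all others, and below it neighbouring classes overlapped. Car2 was at 5.55 to 23.7 times its carried level in ectoderm and at 3.19, 1.91 and 6.57 times in mesenchyme, where Alas2 was near its own. In muscle progenitors Car2 was at 1.07, 3.33 and 3.24 times. Its level in those of B6_E9.5 (14 UMIs) was thus near the carried one. Over the whole endothelial class Car2 was at 3.66, 7.74 and 13.8 times. In endothelial cells with neither megakaryocyte nor macrophage markers it was at 17.0, 3.74 and 61.6 CPM, found in 12.8%, 1.54% and 29.1% of cells. Of the 12 other carbonic anhydrase genes with a row, 0 were 2-fold higher in the erythroid class than in every other, and 7 were at most 0.5 times every other class in all libraries, as were 4354 of all 15122 genes. Car14, the one with most erythroid UMIs, was at 3.45, 2.36 and 1.30 CPM there and at 70.7 and more in mesenchyme.

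Within the limb tissues Car2 was split by position genes, a comparison chosen after the values had been seen. En1 marks the ventral ectoderm, and ectoderm cells with an En1 UMI had 52.1, 8.42 and 45.9 Car2 CPM, against 34.5, 4.48 and 18.2 in those without. The ratios were 1.51 (1.25 to 1.83), 1.88 (0.934 to 3.81) and 2.53 (1.85 to 3.47), so the interval of B6_E10.5 includes 1. Lmx1b marks the dorsal mesenchyme, and cells with a Lmx1b UMI had 1.62, 1.63 and 1.61 times the Car2 CPM of those without. Cells with a UMI of the marker were deeper in every case, at a median of 17533 against 4546 UMIs for Lmx1b in B6_E9.5, and the part of depth in these ratios was not tested.

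Single erythroid cells mostly carried the whole set. UMIs of all 4 enzyme genes Alas2, Alad, Urod and Fech were found in 80.3% (73.2 to 86.2%), 88.2% (84.6 to 91.3%) and 96.5% (94.7 to 97.8%) of erythroid cells. All 7 genes without Alas1 were found together in 56.7%, 58.3% and 64.1%, and the median cell held 7 of the 7 in each library. The number of cells with none of them was 3, 1 and 0. Median counts per cell were 20, 16 and 16 UMIs for Alas2 and 1 for Gata1 in each library, so that cells lacking Gata1 cannot be told apart from cells in which it was missed at this depth. Both Klf1 and Gata1 were found in 59.9%, 61.1% and 65.4% of cells and neither in 10.8%, 7.67% and 4.35%.

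Erythroid cells were also divided at the median haemoglobin share of each library, with the levels counted over UMIs that are not haemoglobin. Alas2 was at 1543, 2032 and 2366 CPM in the lower part of the 3 libraries and at 2228, 2680 and 3338 in the upper. The upper part was thus 1.44-, 1.32- and 1.41-fold higher, and Alas2 was higher there in all 3 libraries. Urod was 1.90-, 1.39- and 1.32-fold higher, Fech 1.33-, 1.28- and 1.15-fold and Car2 1.31-, 1.32- and 1.10-fold. Alad was 1.44-, 1.20- and 1.03-fold higher, and in 129_E9.5, where it was most abundant, its interval included 1 (0.996 to 1.07). Klf1 had ratios of 1.11, 1.15 and 1.00, of which only that of B6_E10.5 had an interval above 1 (1.04 to 1.28). Between the cells of lowest and highest haemoglobin share, with the middle of each library left out, Klf1 in B6_E9.5 was at 1.23 (1.01 to 1.5) and Alas2 at 1.78, 1.56 and 1.62. Gata1 had ratios of 1.18, 1.28 and 1.16, and its interval in B6_E9.5 included 1 (0.919 to 1.51). The median gene was at 0.945, 0.968 and 0.974. Markers of mesenchyme moved with this split, summing to 277, 249.5 and 91.2 CPM in the lower part and 50.3, 60.7 and 43.2 in the upper, and their part in the ratios was not tested.

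**Figure D3:**
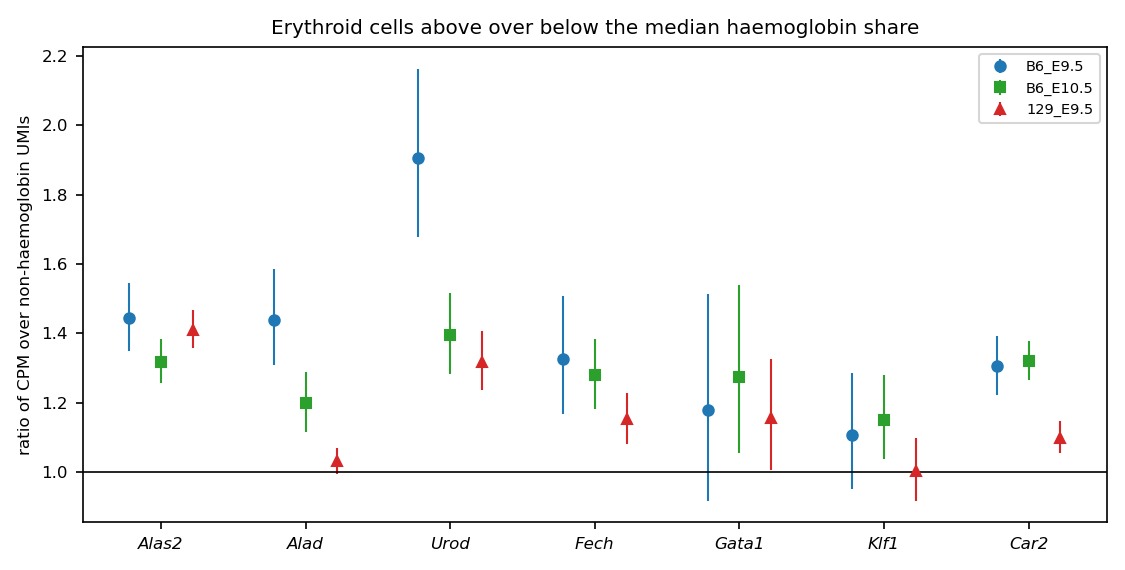
Ratio of each gene's CPM (over UMIs that are not haemoglobin) in erythroid cells above over those below the median haemoglobin share, by library, with 95% intervals; the line marks 1. Alas2 (1.32 to 1.44) and Urod (1.32 to 1.90) lie above 1 in all 3 libraries, while Klf1 lies between 1.00 and 1.15.

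The stage comparison set B6_E10.5 over B6_E9.5 and the strain comparison set 129_E9.5 over B6_E9.5; they share B6_E9.5 and are not independent. A gene was called at a CPM ratio of at least 2 or at most 0.5, and it was judged where the library with the higher value held 10 CPM or more from no fewer than 20 UMIs. Of 27 pairs of gene and class that could be judged for stage, 1 was called higher and 2 lower. The share of all judged genes called was 9.3% in mesenchyme, 5.61% in ectoderm, 9.62% in muscle progenitors, 10.3% in endothelial cells and 12.5% in erythroid cells. Of 26 pairs judged for strain, 7 were called higher and 1 lower, against 6.74% of all genes in mesenchyme, 5.79% in ectoderm, 10.9% in muscle progenitors, 7.4% in endothelial cells and 13.2% in erythroid cells. The 3 called for stage are near that background share, and 5 of the 7 called higher for strain were 1 gene, Alad. In the erythroid class the median gene was shifted by −0.46 (log2) for stage and by −0.30 for strain, so its calls were mostly lower, 591 of 632 and 602 of 676. Scaled by edgeR's TMM factors they were 155 lower and 132 higher for stage, and 227 lower and 241 higher for strain.

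Of the 7 genes judged for stage in the erythroid class, 0 were called. Their stage ratios ran from 0.849 (Gata1, 0.727 to 0.992) to 1.28 (Fech, 1.19 to 1.38), with Klf1 at 1.00, Alas2 at 0.982 and Car2 at 1.18 (1.13 to 1.22). Counted over UMIs that are not haemoglobin, all 7 ratios lay above 1, from 1.09 for Gata1 to 1.64 for Fech, and they did so too with TMM and with DESeq2 factors. The directions of Gata1, Alas2 and Alad (0.870 on the CPM scale) thus depend on the scale. Over 129_E9.5 in place of B6_E9.5, which adds the difference of strain, erythroid Fech was at 0.853 and Urod at 0.787. Their directions thus depend on the library used, and strain and library cannot be told apart here. Alas1 was too low to be judged, with 14 and 13 UMIs and a ratio of 0.454 (0.196 to 1.04).

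Both calls for a lower level at the later stage were of Car2. In mesenchyme it was at 14.5 CPM in B6_E9.5 and 1.70 in B6_E10.5, a ratio of 0.117 (0.0988 to 0.139). In ectoderm the levels were 42.5 and 6.0 CPM, a ratio of 0.141 (0.0981 to 0.197). The endothelial ratio was 0.526 (0.374 to 0.728) and was not called; of the 50 Car2 UMIs of that class in B6_E10.5, 35 were in the cells with megakaryocyte markers, and the cells with neither marker set were at 17.0 and 3.74 CPM. Haemoglobin in mesenchyme also differed, 0.133% against 0.0302%, and the carried part of Car2 was 4.53 and 0.891 CPM. With all cells above 1% haemoglobin left out of the non-erythroid classes, the ratios were 0.123 in mesenchyme and 0.135 in ectoderm. Set over 129_E9.5 in place of B6_E9.5, which adds the difference of strain, they were 0.246 and 0.226, and the endothelial ratio was 0.162. Gata1 in the endothelial class was the call in the other direction, at 7.90 (4.65 to 14.2), beside a sum of megakaryocyte markers of 258 CPM in B6_E9.5 and 1551 in B6_E10.5; over 129_E9.5 in place of B6_E9.5 it was 4.01.

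Among the enzymes, Urod and Fech were slightly higher at the later stage in mesenchyme, with ratios of 1.35 (1.29 to 1.42) and 1.36 (1.27 to 1.46). Over 129_E9.5 in place of B6_E9.5, which adds the difference of strain, these ratios were 0.741 and 1.07. The direction of Urod thus depends on the library it is set over. Urod was 0.720 (0.609 to 0.849) in ectoderm and 1.86 (1.51 to 2.30) in endothelial cells, and Alas1 was 0.651 (0.485 to 0.865) and 1.55 (1.18 to 2.05) there. Over 129_E9.5, again with the difference of strain added, the Urod ratios were 0.509 in ectoderm and 0.865 in endothelial cells. Its opposite directions in these classes were thus seen only over B6_E9.5, and the part of strain was not tested. Alas1 of 129_E9.5 was at 15.7 CPM in ectoderm and 21.1 in endothelial cells, against 11.0 and 20.3 in B6_E10.5. The higher endothelial Alas1 at the later stage was thus also seen only over B6_E9.5. Alad was within 0.777 to 1.17 in all 5 classes.

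**Figure D4:**
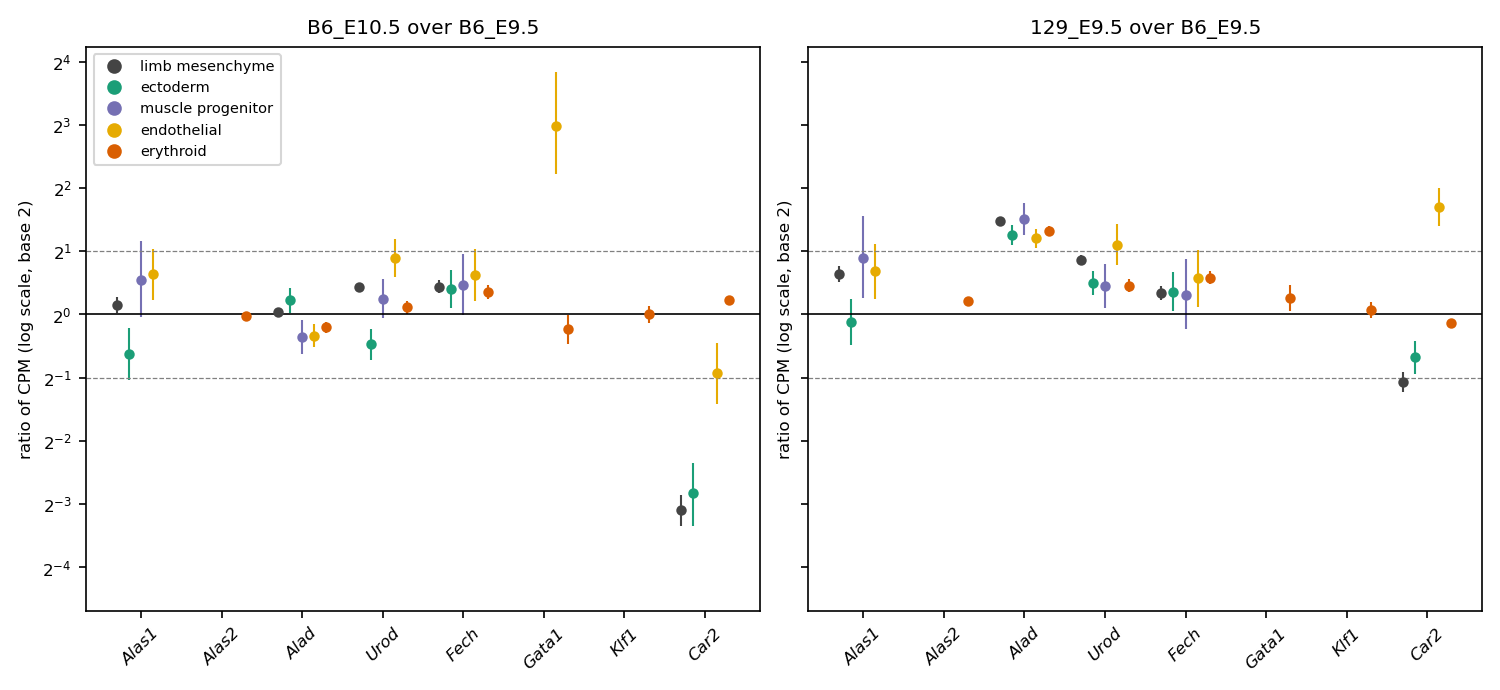
CPM ratio of each gene by class (log axis, base 2), at left B6_E10.5 over B6_E9.5 and at right 129_E9.5 over B6_E9.5; points are ratios with 95% counting intervals, shown where the higher library had at least 10 CPM and 20 UMIs, and dashed lines mark 2-fold. Alad lies above 2 in all 5 classes at right (2.31 to 2.84) and between 0.777 and 1.17 at left.

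Alad was, of the 8 genes, the one called for strain in all 5 classes. It stood at 47.2 CPM in B6_E9.5 and 132 in 129_E9.5 in mesenchyme, a ratio of 2.80 (2.70 to 2.90). Ectoderm gave 2.39 (2.13 to 2.67), muscle progenitors 2.84 (2.39 to 3.40), endothelial cells 2.31 (2.08 to 2.56) and erythroid cells 2.51 (2.38 to 2.64). Against B6_E10.5, the other library of c57bl6.J, the ratio of 129_E9.5 was 2.71, 2.04, 3.66, 2.91 and 2.88 in the same order. The level of 129_E9.5 was thus the highest of the 3 libraries in each class. Of 4726 genes judged in all 5 classes, 14 (0.296%) were at least 2-fold higher in 129_E9.5 in each, Alad among them, and 62 were at most 0.5-fold in each.

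The genes around Alad were set beside it, a choice made after the values had been seen. Within 250 kb of its start there were 10 other genes with a row, 7 of them with at least 20 UMIs in each class. Hdhd3, the next gene downstream with a row (chr4:62499008-62503467, minus strand), had strain ratios of 3.40 (3.0 to 3.86) in mesenchyme, 2.57 in ectoderm, 5.17 in muscle progenitors, 2.35 in endothelial cells and 2.46 in erythroid cells. It was the 1 of these 10 with at least 2-fold in all 5 classes, at levels of only 2.04 to 12.2 CPM. Its intervals reached below 2 in ectoderm (1.65 to 4.06), endothelial cells (1.47 to 3.76) and erythroid cells (1.21 to 5.65). In B6_E9.5 it rested on 7 UMIs in muscle progenitors and 9 in erythroid cells. Ectoderm and erythroid cells, at no more than 8.38 and 7.65 CPM, were too low to be judged for strain. Against B6_E10.5 the Hdhd3 ratio of 129_E9.5 was under 2 in mesenchyme, at 1.53 (1.39 to 1.70), and in ectoderm, at 1.44 (0.923 to 2.26). It was 2.07 in muscle progenitors, 2.33 in endothelial cells and 3.49 in erythroid cells. Pole3, whose start lies 5.15 kb upstream of that of Alad, was at 0.983 in mesenchyme, 1.14 in ectoderm, 0.884 in muscle progenitors, 1.01 in endothelial cells and 0.869 in erythroid cells. Unlike Alad, Hdhd3 also differed by stage in mesenchyme, at 2.21 (1.95 to 2.52), though at 3.59 and 7.94 CPM it was too low to be judged.

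**Figure D5:**
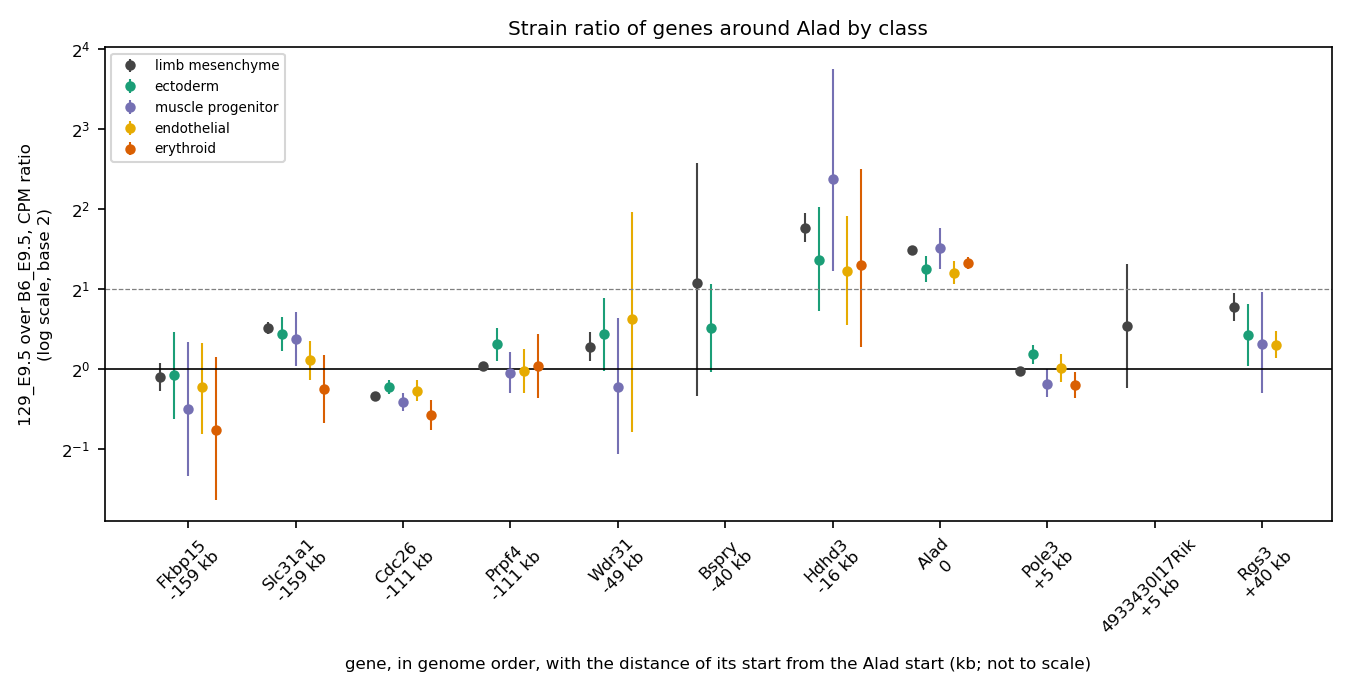
Strain ratio (129_E9.5 over B6_E9.5, CPM, log axis, base 2) of Alad and its neighbours by class, in genome order with the distance of each start from that of Alad; points have 95% counting intervals and are shown where the pair held at least 20 UMIs. The points of Hdhd3 and Alad lie above 2 in all 5 classes, while Pole3 on the other side lies between 0.869 and 1.14. The Hdhd3 intervals reach below 2 in ectoderm, endothelial and erythroid cells.

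The remaining strain calls were in the endothelial class and the mesenchyme. Endothelial Urod was at 20.6 CPM in B6_E9.5 and 44.4 in 129_E9.5, a ratio of 2.15 (1.73 to 2.68), and B6_E10.5 stood at 38.4, over which the ratio of 129_E9.5 was 1.16. Urod ratios in the other classes ran from 1.37 (1.08 to 1.74) in muscle progenitors and 1.37 (1.28 to 1.47) in erythroid cells to 1.83 (1.74 to 1.91) in mesenchyme, none of them called. Endothelial Car2 was 3.24-fold higher (2.63 to 4.02) in 129_E9.5, and 3.24-fold with all cells above 1% haemoglobin left out. In mesenchyme Car2 was lower in 129_E9.5, at 0.478 (0.430 to 0.530). Its carried part was 4.53 CPM in B6_E9.5 and 1.05 in 129_E9.5. With all cells above 1% haemoglobin left out the ratio was 0.4997, just within the limit for a call. Over B6_E10.5 in place of B6_E9.5, which adds the difference of stage, it was 4.07-fold higher, at 6.90 over 1.70 CPM, too low to be judged. The ectoderm ratio of 0.625 (0.520 to 0.747) was not called. In erythroid cells Car2 was at 0.907 (0.873 to 0.942) on the CPM scale and at 1.18 over UMIs that are not haemoglobin. Erythroid Fech was 1.5-fold higher in 129_E9.5 and Alas2 1.16-fold (1.12 to 1.21), neither of them called. With TMM factors Fech reached 2.0-fold and a call. Counted over UMIs that are not haemoglobin, the erythroid strain ratios were larger, at 1.95 for Fech, 1.51 for Alas2 and 1.79 for Urod. Alad was at 3.26 on that scale, Klf1 at 1.37 and Gata1 at 1.56, beside a median log2 ratio of 0.09 for all genes. Alas1 was 1.56-fold (1.43 to 1.70) higher in mesenchyme.

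Genes that serve the pathway were followed as lists. Of all 15122 genes, 146 were at least 2-fold higher in the erythroid class than in every other class of all libraries. Another 4354 were at most 0.5 times every other class. Haemoglobin took 37.7%, 51.4% and 52.1% of erythroid UMIs, which by itself lowers the CPM of every other gene there. Of 16 genes of haem and iron-sulphur transport, 4 were at least 2-fold higher in the erythroid class than in every other class of all libraries: Slc25a37, the mitochondrial iron importer mitoferrin, Abcb10, Tmem14c and Glrx5. In that list 3 were at most 0.5 times every other class (Flvcr2, Pgrmc1 and Bach1), a state held by the 4354 genes counted above. Slc25a37 was at 479, 574 and 343 CPM in erythroid cells and at most 11.9 in mesenchyme. Of 12 genes of iron uptake and storage, 4 were higher, namely Tfrc, Tfr2, Steap3 and Fth1, and 2 lower in that sense, Aco1 and Hfe. Tfrc, the transferrin receptor, was at 277, 69.8 and 164 CPM in erythroid cells, a stage ratio of 0.252 (0.223 to 0.284). The ferritin gene Fth1 was at 6689, 8251 and 6961 CPM.

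Of 4 genes of haem breakdown, Blvrb, a flavin and biliverdin reductase, was higher at 951, 748 and 963 CPM, against 5.82 to 16.6 in mesenchyme. Hmox1, the inducible haem oxygenase, was at most 0.5 times every other class, as were those 4354 genes, with 0.345, 0.674 and 0.778 CPM in erythroid cells and 6.78, 11.1 and 11.2 in mesenchyme. The list of other erythroid transcription factors had 4 of 14 higher (Tal1, Gfi1b, Nfe2 and Ikzf1) and 1 lower (Bcl11a), the list of membrane and red cell genes 15 of 22 higher and 1 lower (Aqp1), and that of haemoglobin genes 8 of 10. For strain, the 7 judged of the 8 genes had a median log2 ratio of 0.26 in erythroid cells, beside −0.30 for all genes. For stage these medians were 0.00 and −0.46.

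Genes whose level most resembled each of the 8 over the 15 sums of class and library, by Pearson's r of log2(CPM + 1) among genes with at least 200 UMIs, are given as a description, since the sums share libraries and the erythroid step drives r. Among the 3 nearest to Alas2 were Trim10 (r = 0.9953) and Epb42, to Klf1 Kel (0.9951), 6030468B19Rik and Rhag, and to Gata1 Nfe2 (0.9933), Gfi1b and Ikzf1. Fech was nearest to Rhd (0.9924), Acp5 and Gm867, and Urod to Steap3 (0.9881), Tspan33 and Fech itself. Car2 was nearest to the embryonic globin genes Hbb-y (0.9544) and Hba-x and to Hba-a1. Alad, with its strain difference, had Rec114 (0.9439) and Hbb-bs among its 3 nearest, and Alas1 had Washc2 (0.9799), Tor1a and Spns1, none of them a red cell gene by the lists used.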

How the data were processed

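The authors deposited raw UMI counts per gene and cell as 1 matrix for the 3 libraries, with each cell's stage, strain and cluster number, per the file headers. Cell Ranger 3 and the build mm10 are named in the submitters' processing notes; the annotation release, the filters and the clustering are not given in the sources used here. Library totals were 124388358, 119942504 and 93029510 UMIs for B6_E9.5, B6_E10.5 and 129_E9.5, from 12773, 18957 and 12220 cells.

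Counts were summed per class and library and divided by the class total (CPM, with exact Poisson intervals). Shares carry Clopper-Pearson intervals and CPM ratios exact conditional binomial ones (Python 3.11.15, scipy 1.17.1), tested on simulated data. Ratios against a count of 0 used 3 counts, and none was given where both counts were 3 or less. The counts of called pairs with no filter on low counts still included such pairs. Alternatives used edgeR 4.0.16, DESeq2 1.42.0 (R 4.3.3), other cell limits and count filters. Symbols came from GENCODE M21 and matched 15119 of 15122 identifiers.

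The 8 genes and the lists were chosen with earlier results of these data known. Named besides them are up to 4 genes per list with most erythroid UMIs, further list genes at least 2-fold higher in the erythroid class, up to 3 nearest genes by r, and genes around Alad; the second and the last were chosen after seeing the values. Promoters are from RefSeq: 6 of the 8 genes matched an entry that is printed or searched here. Some genes that this rule selects are not reported here.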

Additional observations from a re-analysis of the deposited data

Results flagged for a closer look

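Several ratios lay on opposite sides of 1 in different classes of the same comparison; these differences were not tested, as there was 1 library per group. For stage (B6_E10.5 over B6_E9.5), Car2 was lower in mesenchyme (0.117) and ectoderm (0.141) and higher in erythroid cells (1.18). Gata1 was higher in endothelial cells (7.90) and lower in erythroid cells (0.849), where it was 1.09 over UMIs that are not haemoglobin. For strain (129_E9.5 over B6_E9.5), Car2 was higher in endothelial cells (3.24) and lower in mesenchyme (0.478), ectoderm (0.625) and erythroid cells (0.907), the last being 1.18 over UMIs that are not haemoglobin.

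Outside the cells used for the comparisons, the erythroid cluster of B6_E9.5 held 794 cells under 2000 UMIs, with a median of 680 UMIs and 4.18% haemoglobin. In their sum, 7 of the 8 genes stood above the mesenchyme level of that library: Alas2 at 88.9 CPM, Alad at 110, Urod at 80.7, Fech at 32.9, Car2 at 120, Klf1 at 19.8 and Gata1 at 8.23. Alas2 rested on 54 UMIs there, and Gata1 on 5. The mesenchyme of B6_E9.5 held 0.133% haemoglobin against 4.18% in these shallow cells, so the comparison is not of like with like. The level carried along with haemoglobin UMIs was not computed for the shallow cells. Whether any of the 7 genes stood above such a carried level there was not tested.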

How the results depend on the processing

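Over the alternatives, the 4 counts of called pairs moved by over 1.5 times in 7 of 44 cases. With no filter on low counts, 3 pairs were higher and 8 lower for stage and 5 lower for strain. Gata1 in ectoderm, with 0 UMIs in B6_E10.5 and 1 in B6_E9.5, was among those counted as higher for stage. It entered only because a count of 0 was set to 3, so it is not a rise. With a minimum of 50 CPM, 0 were higher and 0 lower for stage and 0 lower for strain, since fewer pairs were judged. With 129_E9.5 in place of B6_E9.5, a comparison added after seeing the data, 7 pairs were lower in B6_E10.5. This swap adds the difference of strain. Alad was among them in all 5 classes, with 129_E9.5 at 2.04 to 3.66 times the level of B6_E10.5. With B6_E10.5 in place of B6_E9.5, which adds the difference of stage, the strain ratio of Car2 in mesenchyme was 4.07 in place of 0.478. Its direction thus depends on the library it is set over, though at this swap Car2 was too low to be judged. No other called ratio changed sign.

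Among levels, 375 of 408 values stayed within their counting interval, and 33 did not, 23 of them when haemoglobin UMIs were left out of the total. In the erythroid class, with no UMI limit, 1398 genes were called for stage in place of 632, and 1319 for strain in place of 676; with DESeq2 size factors the stage count was 291, and with TMM factors 287. The endothelial Gata1 ratio for stage was 15.7 with cells of at most 5% mitochondrial UMIs, in place of 7.90. No paired analysis was possible because there is 1 library per group, and for the same reason no replicate could be left out. Depth limits Gata1, with a median of 1 UMI per erythroid cell, and Alas1 in erythroid cells, with 13 or 14 UMIs in all.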
